A study of Homo sapiens with 6 samples.

Results

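The genes described here encode the machinery that starts and copies DNA at the replication fork. They are 36 genes named by symbol: the origin recognition complex (ORC1 to ORC6), the GINS complex (GINS1 to GINS4), DNA polymerase alpha with its primase (POLA1, POLA2, PRIM1, PRIM2), polymerase epsilon (POLE to POLE4), polymerase delta (POLD1 to POLD4), the clamp loader replication factor C (RFC1 to RFC5), the sliding clamp PCNA with FEN1 and LIG1, the fork protection genes TIMELESS, TIPIN and CLSPN, and the single-strand binding protein RPA (RPA1 to RPA3). All 36 were found among the 23228 gene symbols of the count table, and 36 of 36 passed the filter on low counts that left 14504 tested genes. Polyadenylated RNA came from U2OS, a human osteosarcoma cell line long in culture, harvested 48 hours after transfection with a lipid reagent. Cells of the control group received a scrambled siRNA (3 libraries) and those of the knockdown group received siRNA against ALKBH5 (3 libraries), the enzyme that removes methyl groups from N6-methyladenosine in RNA. No other genetic change or treatment is labelled in either group. The comparison asks which transcripts differ between these groups. The number of ALKBH5 siRNAs used is not given in the labels, and other effects of the siRNAs cannot be told apart from loss of ALKBH5. Whether the replicates were separate cultures is not stated, so the p-values reflect the spread among these libraries alone, which may be technical.

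In human cells ORC marks origins and takes part in loading the MCM ring, and GINS joins that ring with CDC45 to form the active helicase. Polymerase alpha and primase lay down primers, polymerase epsilon extends the leading strand and polymerase delta the lagging strand, each with the PCNA clamp that RFC loads. FEN1 and LIG1 trim and seal Okazaki fragments, RPA covers single-stranded DNA, and the TIMELESS, TIPIN and CLSPN proteins travel with the fork and carry checkpoint signals from it. Many of these genes are known for transcription that rises as cells enter S phase, often through E2F factors.

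Between 18817181 and 23410007 reads per library were counted for genes in the scrambled group, and between 19748583 and 19919797 in the knockdown group. ALKBH5 held 3310, 3073 and 2733 reads in the scrambled libraries and 380, 307 and 306 reads in the knockdown libraries, an 8.35-fold lower level. Reads placed uniquely outside genes were 15.3% ± 0.23 and 17.9% ± 0.656 of uniquely placed reads (SD, n = 3). Of 10 osteoblast-lineage markers 7 were tested, of which 3 fell (BMP4, ALPL and SPARC) and 2 rose (COL1A1 and RUNX2). Over all tested genes 30.8% fell and 30.8% rose by the test described below, the background for each marker count here. SP7, BGLAP and IBSP held 0 to 2 reads per library. In the scrambled libraries 7 leukocyte markers summed to 25.67 to 27.65 CPM (the read count relative to the scaled library size). In the knockdown libraries they summed to 94.73 to 196.9 CPM, most of it LCP1, and CD3E was at 0 in every library. Of the 3 leukocyte markers tested, LCP1 rose while PTPRC and CORO1A fell. The summed level of 6 endothelial markers was 6.848 to 9.609 against 2.406 to 3.581 CPM, and that of 8 epithelial markers 547.1 to 640.6 against 625.5 to 648.6 CPM, with 3 epithelial markers lower (KRT14, KRT8 and CLDN7) and 3 higher (KRT18, CLDN4 and CDH1). The part of these markers in the results was not tested.

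Scrambled replicate 3 stood apart for the replication genes. It held the highest control level of 31 of the 36 genes, or 86.1%, while it was the highest control library for 37.6% of all tested genes. Among the knockdown libraries replicate 2 was highest for 21 of the 36, or 58.3%, against 38.9% of all tested genes. Results that change without scrambled replicate 3 are therefore given with and without it.

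Most of the replication genes were lower after ALKBH5 siRNA. Of the 36, 22 fell, 4 rose and 10 did not pass the test (edgeR's quasi-likelihood test, Benjamini-Hochberg adjusted p under 0.05 over all tested genes). Over all tested genes 30.8% fell and 30.8% rose, so the share of replication genes that fell lay above the background and the share that rose below it. Their median log2 fold change (ALKBH5 siRNA over scrambled, here also called log2 change) was −0.43, from −1.66 to 0.70, and the median over all tested genes was 0.0098. The summed level of the 36 genes was 2742 to 3142 CPM in the scrambled libraries and 2098 to 2191 CPM in the knockdown libraries. Without scrambled replicate 3 the counts were 20 lower and 5 higher, and the median was −0.38.

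The falls ranged from 1.19-fold to 3.15-fold and the rises from 1.26-fold to 1.63-fold. TIMELESS, POLE3, LIG1, TIPIN and GINS3 fell by 2-fold or more, which is 5 of 36 and near the 9.34% of all tested genes that fell that far. None of the 36 rose by 2-fold or more. Tested against a change of 1.5-fold, 7 of 36 were lower (those 5, PRIM1 and CLSPN) and 0 were higher, where 11.8% of all tested genes were lower by that test. CPM ranges of the groups were separate in 28 of 36 genes, where they were separate in 67.4% of all tested genes. By direction, 24 of the 36 were separate and lower and 4 separate and higher. Among the 14504 tested genes 4918 were separate and lower and 4858 separate and higher. In these bulk samples, fewer cells in S phase and less RNA per cell cannot be told apart. Of 6 proliferation markers 5 fell (CCNE1, CCNB1, MKI67, CDK1 and TOP2A), where 30.8% of all tested genes fell. Their log2 changes ran from −1.59 (CCNE1) to −0.36 (TOP2A). CCNA2 was not called by the edgeR test (log2 change −0.15, adjusted p = 0.115), and its groups overlapped. The summed level of the 6 markers was 2504 to 2545 CPM in the scrambled and 1472 to 1708 CPM in the knockdown libraries. The part of these markers in the falls was not tested.

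**Figure D1:**
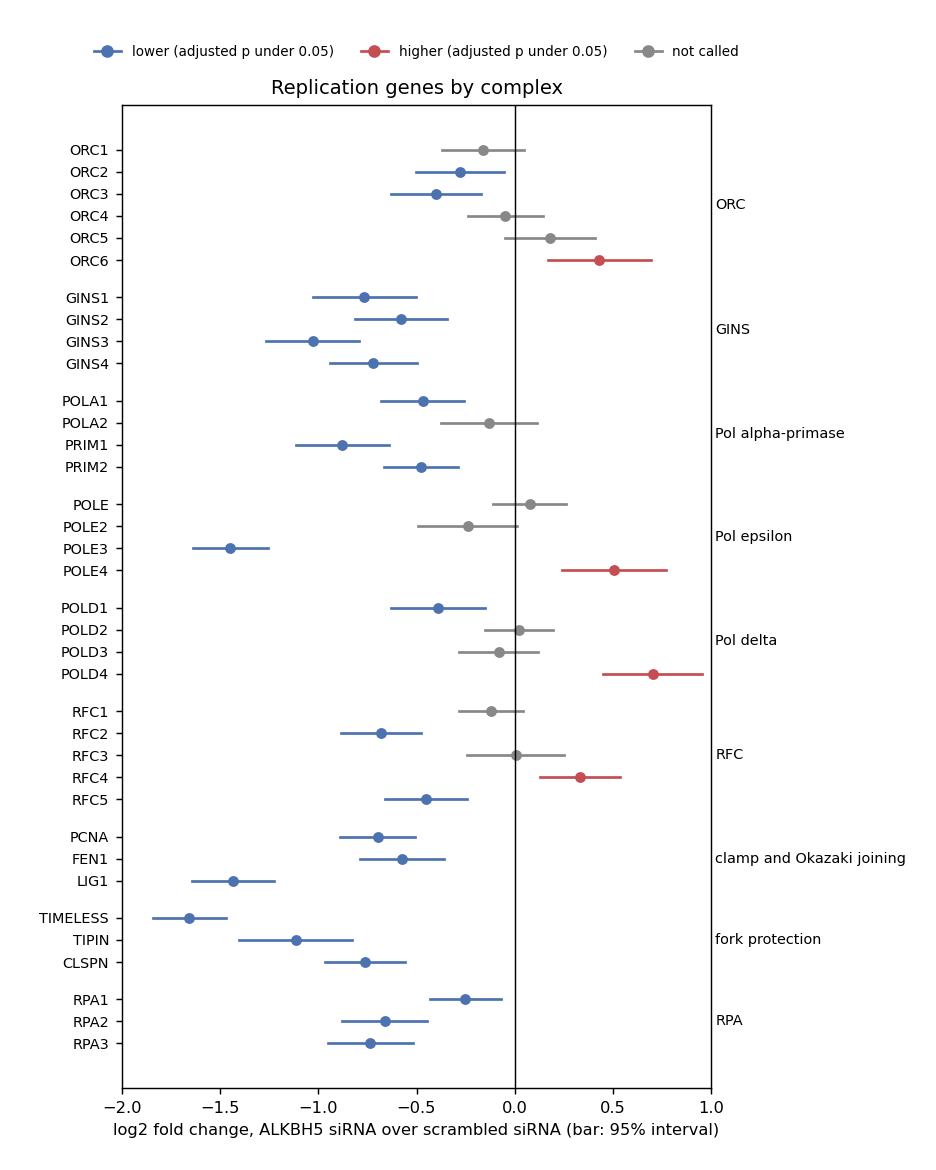
Log2 fold change of each of the 36 genes (ALKBH5 siRNA over scrambled siRNA, x axis) grouped by complex, with 95% intervals from the fit over all tested genes. All 4 GINS genes, all 3 fork protection genes, PCNA, FEN1, LIG1 and all 3 RPA genes lie below 0, while ORC, the polymerases epsilon and delta and RFC each hold genes on both sides.

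Promoter letters were read for the 32 genes with an entry in the RefSeq promoter table (GRCh38.p14, from 250 bases before to 50 after the start). GINS4, POLD3, RPA2 and RPA3 have none there. The E2F letters TTTGGCGC, TTTCGCGC, TTTCCCGC or TTTGCCGC, on either strand, were in 14 of the 32 (43.8%), and in 3.99% of the 27305 genes of the table. The table also lists genes not tested here, and shares among the tested genes alone were not computed. The E2F letters were in 9 of 19 genes that fell, in 1 of 4 that rose and in 4 of 9 that were not called. TIMELESS and POLE3, which fell furthest, did not hold these letters in this window. The CCAAT letters were in 19 of 32 (59.4%), against 39.7% of all genes in the table. The CHR letters TTTGAA were in 1 of 32, POLE3, against 18.2%. The E2F, CCAAT and CHR letters were each searched on both strands.

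Stretches of 48 bases around an E2F match are printed to show that closely similar letters lie before the starts of genes that fell (LIG1, PCNA, TIPIN, GINS2, POLA1), of one that rose (POLE4) and of genes that were not called (POLA2, RFC3). They run 5′ to 3′ along the gene's strand, and capitals mark the E2F letters or their reverse complement. In TIPIN the letters match on both strands in an overlapping run, of which 1 match is in capitals. By GRCh38.p14 coordinates the LIG1 stretch lies at chr19:48170431-48170478 (minus strand), PCNA at chr20:5126654-5126701 (minus), TIPIN at chr15:66356724-66356771 (minus) and GINS2 at chr16:85688958-85689005 (minus). POLA1 lies at chrX:24693761-24693808 (plus), POLE4 at chr2:74958592-74958639 (plus), POLA2 at chr11:65261889-65261936 (plus) and RFC3 at chr13:33818074-33818121 (plus). Each lies before an annotated start. TIPIN and PCNA each have 2 starts in the table, and in both genes the E2F letters are in the window of 1 of them: for TIPIN the downstream start and for PCNA the upstream one. A match is a description of the letters and not of binding.
LIG1: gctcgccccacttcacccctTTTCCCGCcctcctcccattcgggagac
PCNA: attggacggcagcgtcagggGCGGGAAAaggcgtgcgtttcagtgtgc
TIPIN: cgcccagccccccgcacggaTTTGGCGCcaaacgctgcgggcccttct
GINS2: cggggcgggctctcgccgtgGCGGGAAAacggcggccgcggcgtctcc
POLA1: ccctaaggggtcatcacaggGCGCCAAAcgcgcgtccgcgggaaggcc
POLE4: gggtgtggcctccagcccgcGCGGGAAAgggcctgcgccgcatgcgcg
POLA2: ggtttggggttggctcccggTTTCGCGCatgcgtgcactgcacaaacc
RFC3: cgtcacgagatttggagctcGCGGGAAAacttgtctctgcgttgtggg

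The ORC genes moved in both directions. ORC2 and ORC3 fell, ORC6 rose, and ORC1, ORC4 and ORC5 did not pass the test, with a median log2 fold change of −0.11. ORC6, the smallest ORC subunit, held 25.9, 26.2 and 34.4 CPM in the scrambled libraries and 36.8, 41.0 and 38.6 CPM in the knockdown libraries. Every knockdown library was above every control, although scrambled replicate 3 came close to the lowest of them. ORC6 thus rose, by 0.43 on the log2 scale (SE 0.12, adjusted p = 0.00833), and leaving out single libraries gave adjusted p values up to 0.0498. ORC3 fell from 38.5 ± 2.20 to 29.1 ± 2.97 CPM (SD, n = 3, log2 change −0.40). ORC2 went from 41.7 ± 4.36 to 34.3 ± 1.56 CPM (log2 change −0.28, adjusted p = 0.0327). The ORC2 call held in only 2 of the 6 fits that left out a library, and was lost without scrambled replicate 2 or 3 or knockdown replicate 2 or 3, with adjusted p up to 0.122.

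ORC1, the large ATPase subunit, was at 30.1 ± 1.51 and 26.8 ± 0.915 CPM (log2 change −0.16, adjusted p = 0.159). ORC4 was at 59.1 ± 2.73 and 57.1 ± 3.42 CPM, and the groups overlapped. On the strand opposite to ORC4, MBD5 rose (log2 change 0.45) and ACVR2A was not called. ORC5 was at 52.2 ± 6.55 and 59.0 ± 3.98 CPM (log2 change 0.18, adjusted p = 0.157). Scrambled replicate 3 was the control that overlapped the knockdown libraries for ORC5, and without it ORC5 was called higher (adjusted p = 0.0344).

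All 4 GINS genes fell, with a median log2 fold change of −0.74. The summed GINS level was 180.2 to 212.4 CPM in the scrambled libraries and 107.5 to 120.1 CPM in the knockdown libraries. GINS3 (Psf3) held 33.8, 32.9 and 38.4 CPM in the controls and 18.1, 17.6 and 15.8 CPM after ALKBH5 siRNA. The lowest control was well above the highest knockdown library, with a log2 change of −1.03 (SE 0.11, adjusted p = 5.9e-06). GINS1 (Psf1) fell from 31.4 ± 2.19 to 18.5 ± 2.52 CPM (log2 change −0.76), GINS4 (Sld5) from 66.3 ± 7.93 to 40.3 ± 1.29 CPM (−0.72) and GINS2 (Psf2) from 58.3 ± 5.83 to 39.0 ± 4.09 CPM (−0.58). These 4 calls held in every fit that left out a library.

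In polymerase alpha-primase 3 of 4 genes fell, and the median log2 fold change was −0.47. PRIM1, the catalytic primase subunit, changed most, from 60.7 ± 7.02 to 33.0 ± 2.79 CPM (log2 change −0.88, SE 0.11, adjusted p = 2.2e-05). Its partner PRIM2 fell from 65.7 ± 3.98 to 47.2 ± 1.43 CPM (log2 change −0.48). POLA1, the catalytic polymerase subunit, fell by nearly the same factor, from 39.9 ± 2.87 to 28.8 ± 0.645 CPM (log2 change −0.47). POLA2, the accessory subunit, was at 43.8 ± 5.28 and 39.9 ± 3.70 CPM, with overlapping groups (log2 fold change −0.13, adjusted p = 0.323). PRIM1 overlaps NACA on the same strand in the GENCODE 29 annotation. NACA rose, with a log2 fold change of 0.25.

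The polymerase epsilon genes split widely. POLE3, one of the histone-fold pair and also a subunit of the CHRAC chromatin remodelling complex, held 153, 156 and 181 CPM in the scrambled libraries and 58.5, 61.9 and 59.2 CPM in the knockdown libraries. No knockdown library reached the lowest control, and the 3 knockdown libraries lay close together. The fall was 2.73-fold (log2 fold change −1.45, SE 0.087, adjusted p = 6.7e-08). POLE4, the other histone-fold subunit, went the opposite way: it held 11.4, 13.4 and 12.8 CPM in the controls and 17.1, 16.9 and 19.4 CPM after ALKBH5 siRNA. All knockdown libraries were above all controls, with a log2 fold change of 0.50 (SE 0.12, adjusted p = 0.00334).

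The catalytic subunit POLE was at 116 ± 6.21 CPM with scrambled siRNA and 122 ± 10.7 CPM with ALKBH5 siRNA (SD, n = 3). Its log2 fold change was 0.08, with a 95% interval from −0.11 to 0.26, so that a fall of the size seen in POLE3 lies outside the interval. POLE2, the accessory subunit, was at 36.2 ± 5.02 and 30.7 ± 1.803 CPM (log2 change −0.24, adjusted p = 0.0882). It was called lower without scrambled replicate 2 (adjusted p = 0.0354), the control library with its lowest level, and with library totals in place of scaling factors (adjusted p = 0.0371). C9orf43, on the strand opposite to POLE3, held 3 to 15 reads per library.

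**Figure D2:**
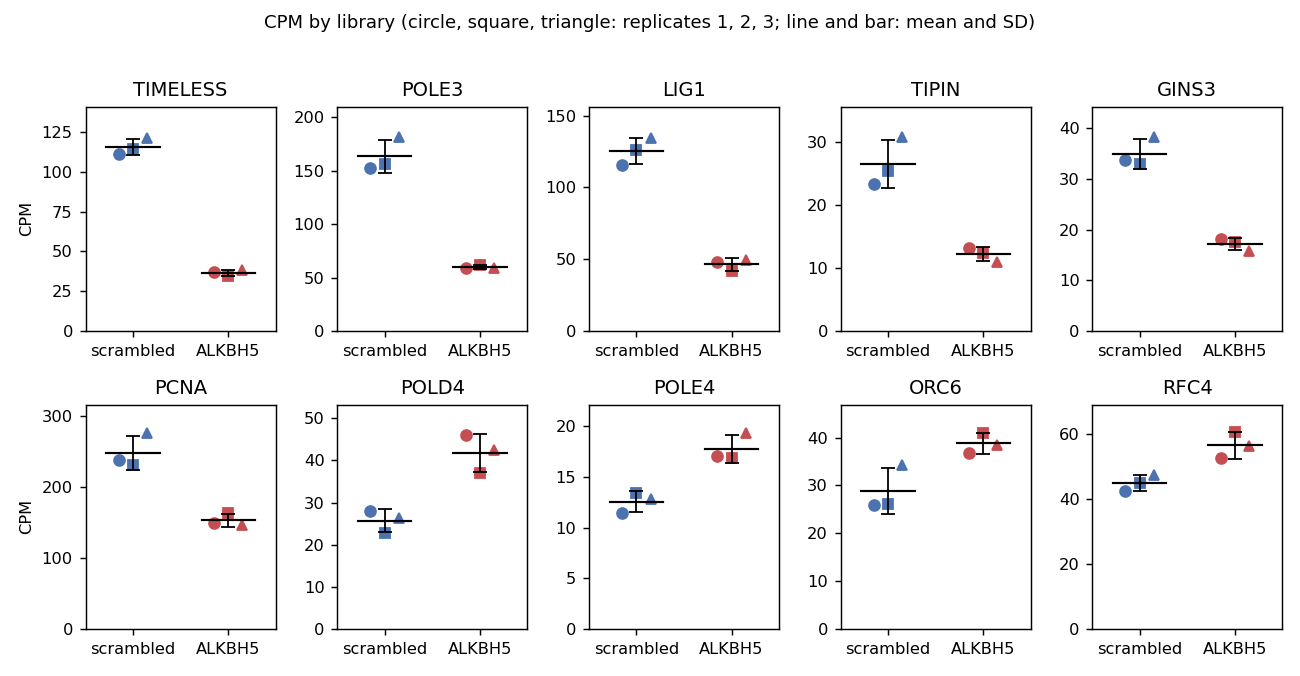
CPM in each library (y axis, from 0) for the 5 genes that fell by 2-fold or more, PCNA and the 4 genes that rose. Circles, squares and triangles are replicates 1, 2 and 3, and lines with bars are means with SD. In all 10 genes the groups do not overlap, and scrambled replicate 3 is the highest control in TIMELESS, POLE3, LIG1, TIPIN, GINS3, PCNA, ORC6 and RFC4.

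Polymerase delta had 1 gene lower, 1 higher and 2 not called, with a median log2 fold change of −0.03. POLD4, the smallest subunit, rose most of the 36 genes. Its level was 28.01, 22.8 and 26.4 CPM in the scrambled libraries and 46.0, 37.0 and 42.6 CPM in the knockdown libraries. The groups were well separated, with a log2 change of 0.70 (SE 0.12, adjusted p = 2.2e-04). RAD9A, which overlaps POLD4 on the opposite strand and encodes a subunit of a checkpoint clamp, also rose, from 29.2 ± 2.94 to 50.6 ± 8.77 CPM (log2 change 0.80). The strand setting of the counting is not given in the sources used here. Whether reads from the overlap of these 2 genes were assigned by strand or left out of both is therefore not known.

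POLD1, the catalytic subunit, fell from 107 ± 10.9 to 81.4 ± 10.8 CPM (log2 change −0.39, adjusted p = 0.0085). POLD2, which joins the catalytic subunit to the others, was at 195 ± 13.4 and 197 ± 11.7 CPM (log2 change 0.02, 95% interval −0.15 to 0.20). POLD3, which also serves translesion synthesis in polymerase zeta, was at 59.8 ± 1.18 and 56.5 ± 5.27 CPM (log2 change −0.08, 95% interval −0.28 to 0.12). The direction of POLD2 turned without a scaling factor, to −0.04.

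Of the RFC genes 2 fell, 1 rose and 2 were not called. RFC2 fell from 73.9 ± 7.71 to 46.1 ± 0.649 CPM (log2 change −0.68, adjusted p = 5.4e-05), and RFC5 from 72.8 ± 6.99 to 53.2 ± 3.57 CPM (−0.45). RFC4 held 42.3, 44.8 and 47.4 CPM in the scrambled libraries and 52.4, 60.6 and 56.3 CPM in the knockdown libraries. Its groups did not overlap, and its log2 fold change was 0.33 (SE 0.093, adjusted p = 0.00809). EIF4A2, on the strand opposite to RFC4, was not called (log2 fold change −0.12).

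RFC1, the large subunit of the canonical loader, was at 157 ± 6.34 and 145 ± 7.41 CPM. Its groups did not overlap, and it was not called (log2 fold change −0.12, adjusted p = 0.182), but it was with library totals in place of scaling factors (adjusted p = 0.039). RFC3 was at 65.4 ± 8.94 and 65.6 ± 6.24 CPM (log2 change 0.01, 95% interval −0.24 to 0.25), and its direction turned without a scaling factor, to −0.06. The smaller RFC subunits serve in every clamp loader of the cell, whereas RFC1 serves in the canonical one.

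PCNA, FEN1 and LIG1 all fell. PCNA held 237, 231 and 275 CPM in the scrambled libraries and 149, 163 and 146 CPM in the knockdown libraries. Every control was above every knockdown library, and scrambled replicate 3 was the highest. PCNA fell by 0.70 on the log2 scale (SE 0.087, adjusted p = 2.4e-05), and its log2 change stayed between −0.75 and −0.62 whichever library was left out.

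LIG1, the ligase that seals Okazaki fragments, held 116, 126 and 134 CPM in the controls and 48.3, 41.5 and 49.6 CPM after ALKBH5 siRNA. The groups were far apart, with a 2.70-fold fall (log2 fold change −1.43, SE 0.096, adjusted p = 1.5e-07). FEN1, the flap nuclease that acts just before ligation, fell less, from 164 ± 22.9 to 110.0 ± 5.61 CPM (log2 change −0.57, SE 0.099). FADS2, which overlaps FEN1 on the same strand, was not called (log2 fold change −0.23). Pseudogenes named after PCNA, FEN1, POLD2, RFC3, RFC5 and RPA2 are annotated, and the counts of these 6 genes are uncertain to the extent that reads match both copies.

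All 3 fork protection genes fell. Their median log2 fold change of −1.12 was the lowest of the complexes described here, and their summed level was 201.7 to 228.4 CPM in the scrambled libraries and 90.8 to 93.13 CPM in the knockdown libraries. TIMELESS, the scaffold of the complex, showed the largest fall among the 36 genes. It held 111, 114 and 121 CPM in the controls and 37.2, 34.7 and 38.2 CPM after ALKBH5 siRNA. The spread within each group was small beside the gap between them, and the fall was 3.15-fold (log2 fold change −1.66, SE 0.084, adjusted p = 2.1e-08).

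TIPIN, which binds TIMELESS and RPA, held 23.3, 25.4 and 30.8 CPM in the scrambled and 13.2, 12.4 and 11.0 CPM in the knockdown libraries. The groups did not overlap, and the fall was 2.17-fold (log2 fold change −1.12, SE 0.13, adjusted p = 1.5e-05). CLSPN encodes claspin, which couples the fork to the checkpoint kinase CHK1, and fell from 73.5 ± 5.53 to 43.4 ± 2.83 CPM (log2 change −0.76, SE 0.093, adjusted p = 2.1e-05).

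All 3 RPA genes fell, RPA1 least. RPA1, the large DNA-binding subunit, went from 202 ± 11.7 to 170.1 ± 13.6 CPM (log2 change −0.25, adjusted p = 0.0196). Leaving out scrambled replicate 3 ended that call (adjusted p = 0.0635), as did leaving out knockdown replicate 1 (adjusted p = 0.089). SMYD4, which overlaps RPA1 on the opposite strand, also fell (log2 change −0.53). As the strand setting is not given, how reads from the overlap of RPA1 and SMYD4 were assigned or left out is not known. RPA2, the subunit phosphorylated under replication stress, fell from 80.0 ± 8.21 to 50.6 ± 3.84 CPM (log2 change −0.66), and RPA3 from 78.5 ± 6.46 to 47.2 ± 4.32 CPM (−0.73). Both held in every fit that left out a library.

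Whether messages of subunits of the same complex changed by unequal factors was measured as the log2 ratio of a subunit's reads to those of a reference subunit in the same library, a quantity that no scaling of libraries touches. Of 25 such ratios, 16 did not overlap between the groups. Ratios of other gene pairs were not computed, and single genes did not overlap in 67.4% of all tested genes, so the count is a description and not a result about these complexes. With 3 libraries against 3 the exact 2-sided permutation test cannot go below p = 0.1, and over the 25 ratios the adjusted p was at best 0.156, so no ratio could pass the threshold, and the values below are descriptions.

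The largest change was in polymerase epsilon. The log2 ratio of POLE3 to POLE was 0.49, 0.39 and 0.59 in the scrambled libraries and −0.97, −0.93 and −1.18 in the knockdown libraries, a change of −1.52 with no overlap (exact permutation p = 0.1, adjusted p = 0.156). POLE3 thus had more reads than POLE in every control and fewer in every knockdown library. POLE4 to POLE changed by 0.43 in the other direction, from −3.21 ± 0.060 to −2.78 ± 0.035 (SD, n = 3). In polymerase delta the log2 ratio of POLD4 to POLD1 was −1.78, −2.22 and −2.16 in the controls and −0.94, −0.90 and −1.03 after ALKBH5 siRNA, a change of 1.096. POLD2 to POLD1 changed by 0.42 without overlap, and POLD3 to POLD1 by 0.31 with overlap.

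The log2 ratio of CLSPN to TIMELESS was −0.73, −0.57 and −0.67 in the controls and 0.12, 0.41 and 0.19 in the knockdown libraries, a change of 0.90. CLSPN had fewer reads than TIMELESS in every control library and more in every knockdown library. TIPIN to TIMELESS changed by 0.55, also without overlap. In RFC, relative to RFC1, RFC4 changed by 0.45, RFC2 by −0.55 and RFC5 by −0.33, all without overlap, while RFC3 changed by 0.13 with overlap.

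For ORC, relative to ORC1, ORC6 changed by 0.60 and ORC5 by 0.35 without overlap, and ORC2, ORC3 and ORC4 overlapped. PRIM1 changed by −0.41 and POLA2 by 0.34 relative to POLA1 without overlap. The log2 ratio of PRIM2 to POLA1 was 0.72 ± 0.073 in the controls and 0.71 ± 0.041 after ALKBH5 siRNA, a difference well inside the spread. Relative to RPA1, RPA2 changed by −0.41 and RPA3 by −0.48, both without overlap. In GINS, GINS3 to GINS1 changed by −0.26 without overlap, and GINS2 and GINS4 overlapped. For each of these ratios the exact permutation p without overlap was 0.1 (adjusted p = 0.156).

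**Figure D3:**
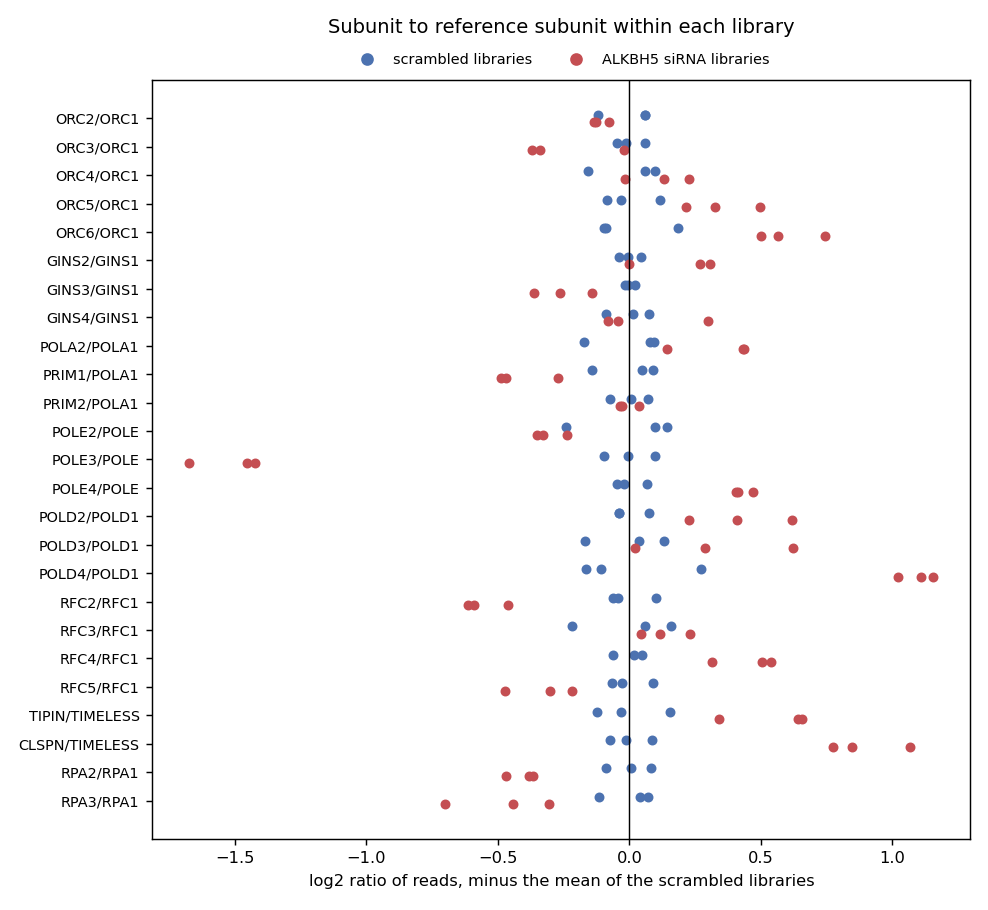
Log2 ratio of reads of each subunit to its reference subunit in each library, minus the mean of the scrambled libraries (x axis), for the 25 ratios. Blue points are the 3 scrambled libraries and red points the 3 knockdown libraries. POLE3 to POLE lies furthest to the left and POLD4 to POLD1 furthest to the right.

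Levels of different genes were set side by side as CPM per kb of the longest coding transcript in GENCODE 29. The transcripts expressed here and the annotation used for counting are not known, so the order of genes depends on these lengths. On this scale PCNA was the most abundant of the 36 messages, at 182 ± 17.7 in the scrambled and 112 ± 6.89 CPM per kb in the knockdown libraries (SD, n = 3). POLD2 followed at 90.1 ± 6.19 in the controls, then POLE3 at 74.5 ± 7.04 and FEN1 at 71.3 ± 9.99, and the last 2 did not differ beyond their spread. POLA1 had the lowest mean in both groups, at 7.28 ± 0.524 and 5.25 ± 0.117 CPM per kb, and in the knockdown libraries its values overlapped those of GINS1 (5.69 ± 0.775). The order within a complex shifted in several cases.

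In polymerase epsilon, POLE3 was far above the other subunits in the controls, where POLE was at 14.8 ± 0.791, POLE2 at 20.2 ± 2.80 and POLE4 at 10.1 ± 0.838 CPM per kb. After ALKBH5 siRNA POLE3 was at 27.3 ± 0.817, POLE2 at 17.1 ± 1.01, POLE at 15.6 ± 1.36 and POLE4 at 14.2 ± 1.098 CPM per kb. POLE3 remained the highest of the 4, and the other 3 lay closer together than before. In polymerase delta POLD2 stayed on top at 91.5 ± 5.44 CPM per kb. POLD4 moved from below POLD1 (17.3 ± 1.79 against 30.4 ± 3.11) to a level whose libraries overlap those of POLD1 (28.2 ± 3.05 against 23.1 ± 3.08 CPM per kb).

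The 5 RFC messages lay between 27.2 ± 3.72 (RFC3) and 43.6 ± 4.55 CPM per kb (RFC2) in the controls. RFC2 was the highest there, whereas RFC4 was the highest after ALKBH5 siRNA, at 39.0 ± 2.85 against 27.2 ± 0.383 CPM per kb for RFC2. TIMELESS was at 22.6 ± 1.01, above TIPIN at 15.2 ± 2.20 and CLSPN at 15.4 ± 1.16 CPM per kb, in the controls. In the knockdown libraries CLSPN was the highest of these at 9.09 ± 0.594, and TIMELESS (7.17 ± 0.356) and TIPIN (7.001 ± 0.637 CPM per kb) did not differ beyond their spread. Among the ORC genes ORC5 was highest in both groups, at 26.6 ± 3.34 and 30.1 ± 2.03, and ORC6 went from 17.0 ± 2.83 to 22.8 ± 1.25 CPM per kb.

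**Figure D4:**
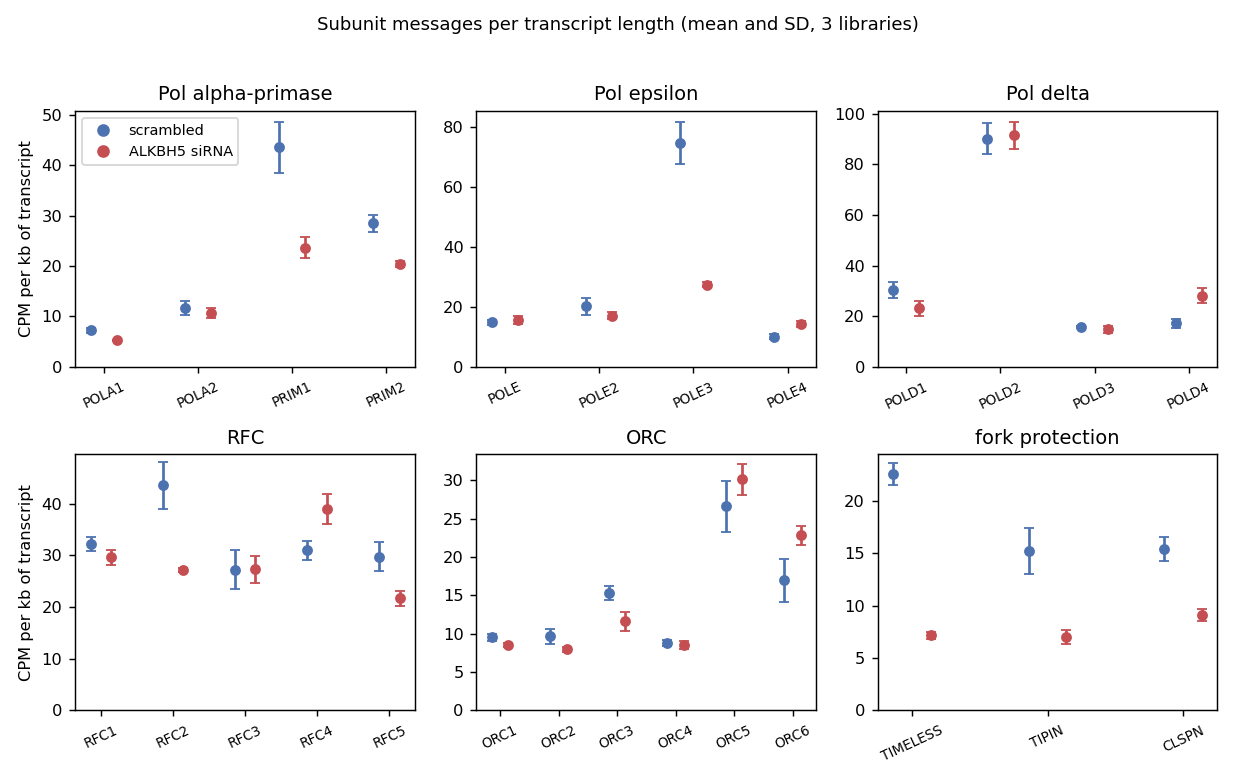
CPM per kb of the longest coding transcript (y axis, from 0) for the subunits of 6 complexes, as mean and SD over 3 libraries, in the scrambled (blue) and knockdown (red) groups. POLE3 is well above its complex in the controls, and the RFC and fork protection genes change order between the groups.

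Other genes of DNA replication were counted from lists by role. Of 19 other replisome and licensing genes 14 fell, 1 rose (MTBP) and 4 were not called, with a median log2 fold change of −0.53, against 30.8% lower and 30.8% higher over all tested genes. MCM6 and MCM7, subunits of the helicase ring, fell by 1.63 and 1.51 on the log2 scale, to 32.9 ± 6.66 from 102 ± 7.30 and to 226 ± 5.34 from 642 ± 76.05 CPM. MCM2 fell from 174 ± 15.4 to 94.4 ± 0.524 CPM (log2 change −0.88). The MTBP call was lost without scrambled replicate 1 or 2 and with library totals in place of scaling factors, each of which left 0 genes of this list higher.

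Of 14 other genes for clamp loading, Okazaki processing and fork topology 7 fell, 2 rose (RNASEH2B and RAD17) and 5 were not called, with a median log2 fold change of −0.20, against 30.8% lower and 30.8% higher over all tested genes. DSCC1 and CHTF8 form an alternative clamp loader together with CHTF18 and the smaller RFC subunits. DSCC1 fell from 76.7 ± 5.41 to 29.3 ± 4.11 CPM (log2 fold change −1.39). CHTF8 fell from 189.9 ± 6.26 to 93.8 ± 9.07 CPM (log2 fold change −1.02). CHTF18 itself was not called (log2 fold change 0.04). DNA2, a nuclease for long flaps, fell from 59.2 ± 2.38 to 35.98 ± 3.52 CPM (log2 change −0.72). The count of higher genes in this list was 1 without scrambled replicate 1, without scrambled replicate 2 or without knockdown replicate 2, and 3 without knockdown replicate 1.

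The 14 other DNA polymerase genes (repair, translesion and mitochondrial) showed 4 lower, 4 higher and 6 not called, with a median log2 fold change of −0.12. Both shares lay near the background of 30.8% in each direction. POLK, a translesion polymerase, rose from 27.8 ± 0.755 to 45.8 ± 2.35 CPM (log2 change 0.72). POLQ, the polymerase of microhomology-mediated end joining, rose from 49.3 ± 0.686 to 71.5 ± 3.77 CPM (0.54), and POLN from 1.47 ± 0.228 to 3.15 ± 0.405 CPM (1.103). The count of lower genes in this list was 2 without scrambled replicate 1, 1 without knockdown replicate 1 and 2 without knockdown replicate 2.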

How the data were processed

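RNA-seq libraries of U2OS cells (3 scrambled siRNA, 3 ALKBH5 siRNA) were grouped by their labels. The values the authors deposited are whole-number read counts for each gene symbol, not normalised, per the file headers. CASAVA 1.8.2, TopHat2, SAMtools, HTSeq and the build hg19 are named, per the submitters' processing notes. Neither the annotation nor the strand setting is given in the sources used here. The joint table and the single files hold identical counts, and 0 columns matched no sample. HTSeq's summary entries were left out of library sizes and tests.

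The test was that of edgeR 4.0.16 under R 4.3.3 (filterByExpr, TMM scaling, robust glmQLFit and glmQLFTest, 2-sided), fitted on all 14504 tested genes with Benjamini-Hochberg adjustment and a threshold of 0.05. The smallest depth of 18817181 reads means that the 36 genes, at 215 to 5694 reads per library, rest on many reads each. CPM values carry TMM factors. The SE was derived as the absolute log2 fold change divided by the square root of the test's F statistic. The 95% intervals were built from that SE with a t quantile, so both are approximations. Subunit ratios had 0.5 read added to each count and an exact 2-sided permutation test over libraries. The fit was run on simulated counts in which 200 genes changed, with the same spread for all genes. Far more genes were called in the data, so this run could not check calls in that setting. Alternatives were RLE scaling, library totals, no filter, DESeq2 1.42.0, at least 1 CPM in 3 libraries, voom of limma 3.58.1, glmTreat against 1.5-fold, the replicate number as a block, each library left out in turn and, for ratios, 2 reads added.

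The 36 genes and the lists were chosen with earlier results of these data known. Values per library were given for genes called with a change of 2-fold or more, genes that rose, and PCNA, and up to 3 called genes with the smallest adjusted p were named per other list. Other genes named (RNASEH2B, RAD17, MTBP, CHTF18 and overlapping genes) were chosen after their values were seen. Transcript lengths and overlaps are from GENCODE 29 and promoters from RefSeq (GRCh38.p14). Protein sequences were not analysed here.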

Additional observations from a re-analysis of the deposited data

How the results depend on the processing

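Across RLE scaling, library totals, both other filters, DESeq2 and limma-voom, 22 to 24 of the 36 replication genes were lower and 4 higher, and leaving out single libraries gave 20 to 22 lower and 4 to 5 higher. Their median log2 fold change ran from −0.49 (library totals) to −0.38 (without scrambled replicate 3). Against a 1.5-fold change (glmTreat) 7 were lower and 0 higher. By that test the other replisome genes had 6 lower and 0 higher, the other clamp loading, Okazaki and topology genes 2 and 0, and the other polymerases 0 and 1. Library totals left 0 and 1 higher genes in the first 2 of these lists. Directions turned for 3 genes that were not called: ORC4 (−0.092 to 0.0028 with libraries left out), POLD2 (−0.043 with library totals, −0.025 to 0.074 with libraries left out) and RFC3 (−0.061 with library totals, −0.00048 with no filter, −0.11 to 0.060 with libraries left out). The replicate number as a block gave 23 lower, adding POLE2 (adjusted p = 0.0362), and 4 higher. Deviations of same-numbered libraries correlated at 0.331, 0.058 and 0.351, while replicates 1 and 3 crossed gave −0.367 and −0.272. Scrambled replicate 2 correlated at 0.077 with knockdown replicate 1, close to its value with its own number. Over all tested genes the block raised the calls from 4466 to 4895 lower and from 4471 to 4865 higher. The labels state no pairing beyond the number, so the main fit had no block. Whether same-numbered libraries shared a batch was not tested. Of the 25 ratio changes 23 kept their direction in every setting run, while GINS4 to GINS1 turned to −0.062 without knockdown replicate 3 and PRIM2 to POLA1 reached 0.026 without scrambled replicate 1. Small changes were limited by the spread over 3 libraries a group: the 95% intervals of the 10 genes not called reached from −0.49 to 0.41.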
